A study of Mus musculus with 8 samples.

Results

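The genes described here encode the subunits of the vacuolar proton pump (V-ATPase), its accessory proteins and the carbonic anhydrases, 33 genes chosen by name from the 37583 gene rows of each count file. They comprise 13 V1 subunits, 10 V0 subunits, 2 accessory proteins and 8 carbonic anhydrases, and all 33 have a row. The filter on low counts kept 31 of them among the 15228 genes tested, and Atp6v1e2 and Car15 stayed out.

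RNA-seq was run on 4 whole-kidney samples from mice of the genotype b-actinCreERT2+TFAP2Bfl/fl, labelled knockout, and on 4 from littermate controls labelled WT. The Cre recombinase of the first group is driven by the beta-actin promoter, which is active in most cell types, and the ERT2 domain keeps it inactive until tamoxifen or a related ligand is given, so that deletion of the floxed Tfap2b alleles is not limited to a kidney segment. The targeted gene, Tfap2b, codes for the transcription factor AP-2 beta, which acts in the distal nephron. Age, sex, the dosing schedule and whether the controls carried floxed alleles, Cre or the ligand are not stated in the sources used here, and neither is more about the replicates than their number, so that p-values measure only the spread between these samples. The comparison addresses which kidney transcripts differ between the genotypes, and here how the pump isoforms that the kidney's acid-secreting cells favour moved beside the isoforms that most cells use.

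The V-ATPase moves protons across membranes at the cost of ATP. Its V1 sector, in the cytosol, hydrolyses ATP and is built from subunits A to H, and its V0 sector, in the membrane, carries the protons through a ring of c subunits past subunit a. Most cells use the pump to acidify lysosomes and endosomes, with ubiquitous forms of each subunit. Intercalated cells of the collecting duct and connecting tubule place it in the plasma membrane and use restricted forms of subunits B, C, G, a and d. Type A intercalated cells secrete acid and type B cells secrete bicarbonate through the exchanger pendrin, and inherited loss of the B or a subunit of these cells (ATP6V1B1 or ATP6V0A4) causes distal renal tubular acidosis. Carbonic anhydrases supply the pump with protons by hydrating CO2 to bicarbonate and a proton.

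Libraries held 13435113 to 17930347 gene counts in the group labelled knockout and 13783857 to 17741722 in the group labelled wildtype. Whole-gene counts of Tfap2b (ENSMUSG00000025927) were higher in the knockout-labelled libraries, with 238.1, 266.5, 237.0 and 240.3 counts scaled to library size (CPM) against 94.3, 104.9, 110.5 and 102.8 CPM (log2 fold change 1.25 ± 0.074 (SE), edgeR adjusted p = 4.18e-06). These counts include exons outside any deleted part and do not check the deletion, so every direction below is that of the knockout-labelled libraries against the wildtype-labelled ones. Knockout library 4 stood apart in adrenal markers, with a summed level of 322.7 CPM where the 7 others held 79.1 to 109 CPM. A clock score, the mean log2 CPM of clock output genes minus that of clock activators, was -1.37 to 1.06 in the knockout-labelled libraries and 0.42 to 3.05 in the wildtype-labelled ones, so the groups differed in clock state with some overlap. CPM values are scaled by TMM factors, fold changes and adjusted p-values come from edgeR's quasi-likelihood test adjusted over all genes tested, and a gene is said to have risen or fallen where the adjusted p was under 0.05.

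Of the 31 members tested, 4 rose, 2 fell and 25 did not pass the test. Of all genes tested 6.23% rose and 5.7% fell, 11.9% together, against 19.4% of the members. The members that rose were Atp6v1g3, Atp6v0d2 and Atp6v1c2, which are restricted forms of subunits G, d and C, and Car13, a cytosolic carbonic anhydrase. Car14, a carbonic anhydrase of cell membranes, and Atp6v1b2, the ubiquitous form of subunit B, fell. The median log2 fold change was 0.03 over the members and 0.00 over all genes. In 5 members every knockout-labelled library lay above every wildtype-labelled library and in 2 every one lay below, against 9.42% and 9.05% of all genes (18.5% together). Without knockout library 4, Atp6v1g3 had a log2 fold change of 0.99, Atp6v0d2 0.93, Atp6v1c2 0.70, Car13 0.92 and Car14 -1.16, and these 5 passed the test, while Atp6v1b2 did not (-0.25, adjusted p = 0.129).

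**Figure D1:**
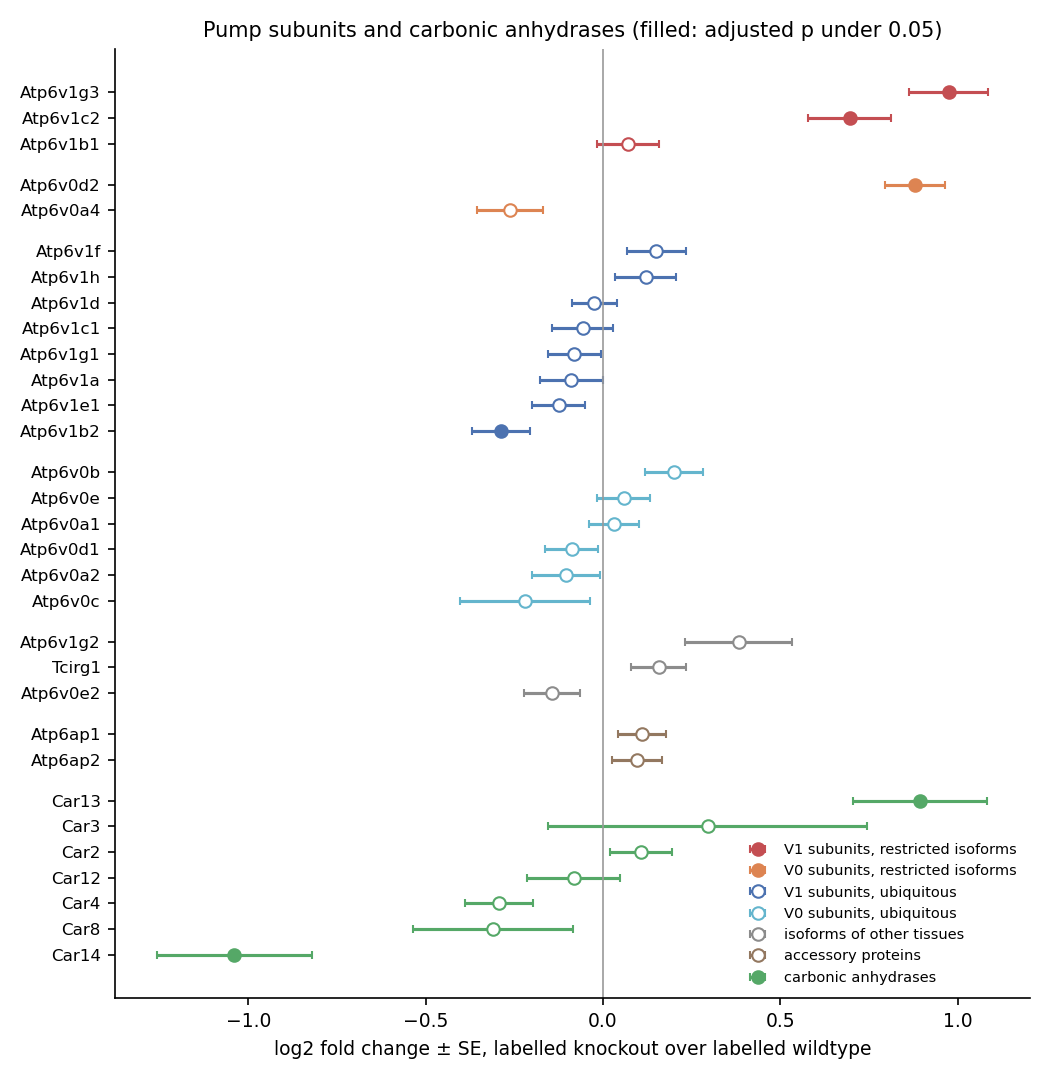
Log2 fold change with its SE for the 31 members tested, libraries labelled knockout over the wildtype-labelled ones (n = 4 each), grouped by role; filled points passed an edgeR adjusted p of 0.05. Among the restricted pump isoforms Atp6v1g3, Atp6v0d2 and Atp6v1c2 lie between 0.70 and 0.97 while Atp6v1b1 and Atp6v0a4 lie at 0.07 and -0.26, and the ubiquitous subunits lie between -0.29 and 0.20.

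Of the 5 restricted isoforms 3 rose, 0 fell and 2 did not pass the test, with a median log2 fold change of 0.70. Marker transcripts of other distal nephron cells differed as well. Of 8 principal cell markers tested 6 rose and 0 fell, with a median of 0.61. Their summed level was 1125 to 1909 CPM in the knockout-labelled libraries against 771 to 1247 CPM. Aqp4, among these markers, was lower in every knockout-labelled library but did not pass the test (-1.39, edgeR adjusted p = 0.067). Of 6 thick limb markers 6 fell, with summed levels of 5388 to 6148 CPM against 9139 to 11428 CPM. The part of such shifts in the results below was not tested. Among the promoters of these genes, 2 windows lie free of annotated exons and are shown because their genes rose together. Each runs 250 bases upstream of the RefSeq start, on the strand of the gene, in GRCm38.p6, with matches to the forkhead letters TNTTTNC (either strand) in capitals; Foxi1, the regulator of intercalated cells, is a forkhead factor. The first lies at chr1:138273488-138273737 on the plus strand and the second at chr12:17324731-17324980 on the minus strand.
Atp6v1g3: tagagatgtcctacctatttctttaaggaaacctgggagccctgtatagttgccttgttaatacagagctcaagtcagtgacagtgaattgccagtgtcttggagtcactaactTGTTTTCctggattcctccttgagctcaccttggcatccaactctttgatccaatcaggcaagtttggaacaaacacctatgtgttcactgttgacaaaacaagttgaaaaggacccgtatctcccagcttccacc
Atp6v1c2: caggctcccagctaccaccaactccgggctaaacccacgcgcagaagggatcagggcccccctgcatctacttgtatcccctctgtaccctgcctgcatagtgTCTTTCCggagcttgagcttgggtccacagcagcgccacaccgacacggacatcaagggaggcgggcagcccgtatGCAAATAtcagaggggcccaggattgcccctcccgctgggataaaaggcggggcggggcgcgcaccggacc

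Beside them stands a stretch of 29 bases from the window of Atp6v1b1, the restricted form of subunit B that did not pass the test. It lies at chr6:83742908-83742936 on the plus strand and holds the full forkhead core TGTTTAC 98 to 92 bases before the start.
Atp6v1b1: accagcttcccTGTTTACagtcaacctgg

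The match of Atp6v1g3 (TGTTTTC) lies 136 to 130 bases before the start, and those of Atp6v1c2 (TCTTTCC and, on the other strand, GCAAATA) lie 147 to 141 and 71 to 65 bases before it. Such letters are common: TNTTTNC occurs on either strand in 48.1% of 32851 windows and in 9 of the 23 member genes with a window, and TGTTTAC, which is contained in TNTTTNC, in 3.17% of windows and in 1 member. The window of Atp6v0a4 held no match, and Atp6v0d2 had no window to search. An AP-2 palindrome, GCCNNNGGC, which reads the same on both strands, occurs in 13.7% of windows and in 4 members (Atp6v0b, Atp6v0c, Car4 and Tcirg1). It was absent from the restricted isoforms that had a window, and Atp6v0d2 could not be searched. These are matches of letters and not measured binding.

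Atp6v1g3 (ENSMUSG00000026394), the kidney form of subunit G, which is part of the peripheral stalk, stood at 159.5, 211.2, 183.8 and 177.7 CPM in the knockout-labelled libraries and at 103.9, 81.8, 82.4 and 104.5 CPM in the wildtype-labelled ones. The lowest library labelled knockout lay above the highest labelled wildtype, and knockout library 2 was the highest of all. The gene was 1.97-fold higher in the knockout-labelled group (log2 fold change 0.97 ± 0.11 SE; edgeR adjusted p = 0.000386), from a mean of 93.2 ± 12.7 to 183 ± 21.4 CPM (SD, n = 4 each).

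Atp6v0d2 (ENSMUSG00000028238), a restricted form of subunit d, which couples the central stalk to the membrane ring, stood at 136.0, 135.2, 137.6 and 116.6 CPM in the knockout-labelled libraries against 74.6, 66.2, 65.5 and 79.5 CPM. The groups did not overlap, and knockout library 4 was the lowest of its group. It was 1.84-fold higher (log2 fold change 0.88 ± 0.084 SE, with an edgeR adjusted p of 0.000111). Osteoclasts and macrophages also use Atp6v0d2. Of 13 macrophage markers tested, 12 rose and 0 fell, with a median log2 fold change of 1.21, and their summed level was 360 to 585 CPM in the knockout-labelled libraries and 197 to 239 CPM in the wildtype-labelled ones. Csf1r, the highest of them in the wildtype-labelled libraries (mean 107 CPM), was level (log2 fold change 0.00078, edgeR adjusted p = 0.997). Lyz2 had the highest log2 fold change (2.22), from a mean of 29.9 to 139 CPM. Both the macrophage sum and Atp6v0d2 were higher in every knockout-labelled library than in every wildtype-labelled one. The sum was highest in knockout library 1 and Atp6v0d2 in knockout library 3. Of 6 osteoclast markers 3 were tested and 1 rose, the protease gene Ctsk (1.05 ± 0.15, adjusted p = 0.00148), and the summed level was 86.4 to 97.6 CPM against 77.8 to 84.4 CPM. The defining osteoclast genes Oscar, Dcstamp and Ocstamp had 27, 20 and 11 counts over all 8 libraries together. The part of macrophages in the rise of Atp6v0d2 was not tested.

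Atp6v1c2 (ENSMUSG00000020566), a restricted form of subunit C, which holds the stalks of the assembled pump, stood at 86.6, 116.4, 92.7 and 96.8 CPM against 70.3, 53.0, 53.3 and 65.8 CPM. Again no library labelled knockout reached down to the level of a library labelled wildtype, and knockout library 2 was the highest. The gene was 1.62-fold higher (log2 fold change 0.70 ± 0.12 (SE), edgeR adjusted p = 0.00378). Fitted beside the clock score the value was 0.42 and did not pass (adjusted p = 0.142). Its exons share 50 bases, 2.30% of their length, with the opposite-strand gene Pdia6, and the reads were counted without strand.

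Both restricted isoforms linked to renal tubular acidosis behaved otherwise. Atp6v1b1 (ENSMUSG00000006269), the restricted form of the nucleotide-binding subunit B, stood at 169.6, 165.6, 159.2 and 132.0 CPM in the knockout-labelled libraries and at 162.5, 143.4, 146.6 and 144.1 CPM in the wildtype-labelled ones, with a log2 fold change of 0.07 ± 0.087 (SE) and an edgeR adjusted p of 0.647. Atp6v0a4 (ENSMUSG00000038600), the restricted form of subunit a, which forms the proton path, stood at 357.9, 335.3, 412.9 and 308.6 CPM against 442.5, 402.7, 439.1 and 412.7 CPM. Its log2 fold change was -0.26 ± 0.094 (SE) with an edgeR adjusted p of 0.0957. In both genes the groups overlapped, for Atp6v0a4 through knockout library 3 alone, without which the value was -0.34 (adjusted p = 0.029). With DESeq2 Atp6v0a4 passed as well (adjusted p = 0.045). The part of cells other than intercalated cells in the level of either gene was not tested. Its exons share 259 bases with D630045J12Rik on the same strand and 62 bases with Tmem213 on the opposite strand, which rose (log2 fold change 0.40, adjusted p = 0.0328).

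In whole kidney, fewer cells of a type and less RNA per cell cannot be told apart. A ratio between restricted isoforms within a library depends on neither scaling nor depth, although it still mixes cell types. Ratios of each of the 3 isoforms that rose over each of the 2 that did not, 6 in all and chosen after the values were seen, were higher in every knockout-labelled library than in every wildtype-labelled library. The log2 difference ran from 0.63 for Atp6v1c2 over Atp6v1b1 to 1.25 for Atp6v1g3 over Atp6v0a4, and Atp6v0d2 over Atp6v1b1 went from -1.06 ± 0.14 to -0.25 ± 0.067 (SD, n = 4 each). Since the pairs were picked for this difference, no test is given.

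Of the 14 ubiquitous subunits 0 rose and 1 fell, with a median log2 fold change of -0.07 and a range of -0.29 to 0.20. Atp6v1b2 (ENSMUSG00000006273), the form of subunit B that most cells use, stood at 428.6, 362.7, 404.5 and 362.1 CPM in the knockout-labelled libraries against 473.2, 515.2, 460.6 and 452.5 CPM. All 4 lay below the lowest library labelled wildtype, and the gene fell by 0.29 ± 0.083 (SE) on the log2 scale (edgeR adjusted p = 0.0457). That call was narrow. It did not pass when knockout library 2, 3 or 4 or wildtype library 1, 2, 3 or 4 was left out in turn, with adjusted p-values of 0.0651 to 0.129, and it passed without knockout library 1 (-0.34, adjusted p = 0.0266). With library totals in place of TMM factors the value was -0.18 (adjusted p = 0.155).

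The ubiquitous partners of the other restricted isoforms did not pass the test. Atp6v1c1 (subunit C) stood at 126.8, 143.9, 143.2 and 149.8 CPM in the knockout-labelled libraries and 153.7, 139.1, 130.0 and 163.9 CPM in the wildtype-labelled ones (log2 fold change -0.06 ± 0.087 (SE), edgeR adjusted p = 0.714). Atp6v1g1 (subunit G) stood at 77.0, 85.3, 87.6 and 86.7 CPM against 81.8, 98.6, 87.1 and 88.6 CPM (-0.08 ± 0.074, edgeR adjusted p = 0.525). In both the groups overlapped, as they did in the partners from the V0 sector. Atp6v0a1 (subunit a) stood at 91.9, 90.0, 86.9 and 87.2 CPM against 77.7, 93.5, 86.0 and 91.1 CPM (0.03 ± 0.070, edgeR adjusted p = 0.812). Atp6v0d1 (subunit d) stood at 120.1, 129.1, 148.0 and 139.0 CPM against 142.2, 141.1, 138.1 and 148.7 CPM (-0.09 ± 0.075, edgeR adjusted p = 0.488). The catalytic subunit gene Atp6v1a had a log2 fold change of -0.09, the rotor and stalk genes Atp6v1d, Atp6v1e1 and Atp6v1f had -0.02, -0.12 and 0.15, and Atp6v1h, the regulator of ATP hydrolysis, had 0.12, with edgeR adjusted p-values of 0.276 or more. Of the other V0 genes, the ring subunits Atp6v0c and Atp6v0b had -0.22 and 0.20, Atp6v0e had 0.06 and Atp6v0a2, the form of subunit a found in endosomes and the Golgi, had -0.11, with edgeR adjusted p-values of 0.140 or more. Atp6v0b passed only with library totals as the scale (0.31, adjusted p = 0.0343), a setting that moves the median of all genes to 0.11.

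**Figure D2:**
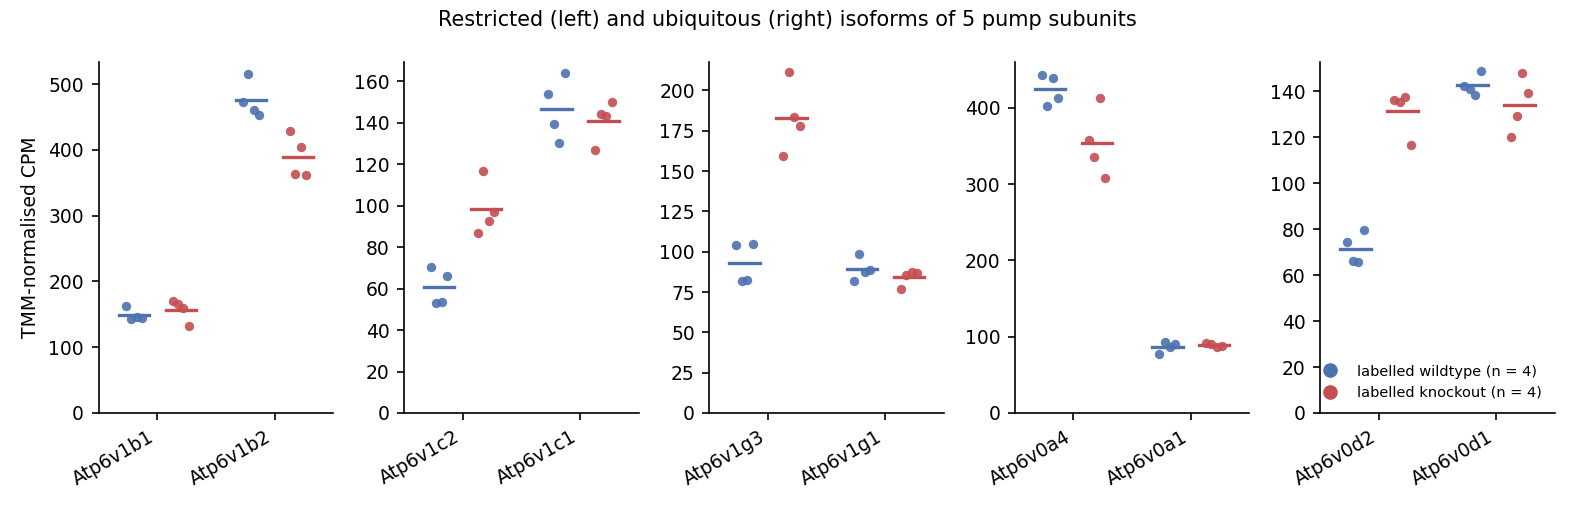
TMM-normalised CPM of the restricted (left) and ubiquitous (right) isoform of subunits B, C, G, a and d in each library, points for libraries and bars for group means (n = 4 each); levels are not divided by gene length, so heights compare groups within a gene only. Atp6v1c2, Atp6v1g3 and Atp6v0d2 separate the groups, while their ubiquitous partners overlap.

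The balance between the paired isoforms of a subunit, over all cell types of the kidney together, shifted in these libraries for 4 of 5 subunits. Each library's log2 ratio of restricted over ubiquitous counts was compared by exact permutation over all 70 assignments, two-sided, for which the smallest possible p is 0.0286. Subunit G moved most, from 0.06 ± 0.28 in the wildtype-labelled libraries to 1.12 ± 0.13 in the knockout-labelled ones (SD, n = 4 each; difference 1.06, exact permutation p = 0.0286). Subunit d went from -1.001 ± 0.097 to -0.03 ± 0.19 (difference 0.97, exact permutation p = 0.0286) and subunit C from -1.28 ± 0.11 to -0.53 ± 0.15 (difference 0.75, exact permutation p = 0.0286). In these 3 subunits the shift came with a rise of the restricted isoform.

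Subunit B also shifted, by 0.36, from -1.67 ± 0.13 to -1.32 ± 0.14 (SD, n = 4 each, exact permutation p = 0.0286), but there the restricted Atp6v1b1 had a log2 fold change of 0.07 and the ubiquitous Atp6v1b2 one of -0.29. Subunit a moved the other way, from 2.29 ± 0.18 to 1.98 ± 0.19 (difference -0.30, exact permutation p = 0.0857), with overlapping groups. Adjusted over the 5 pairs, the p of the 4 shifted subunits was 0.0357 by the exact permutation test with Benjamini-Hochberg adjustment.

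**Figure D3:**
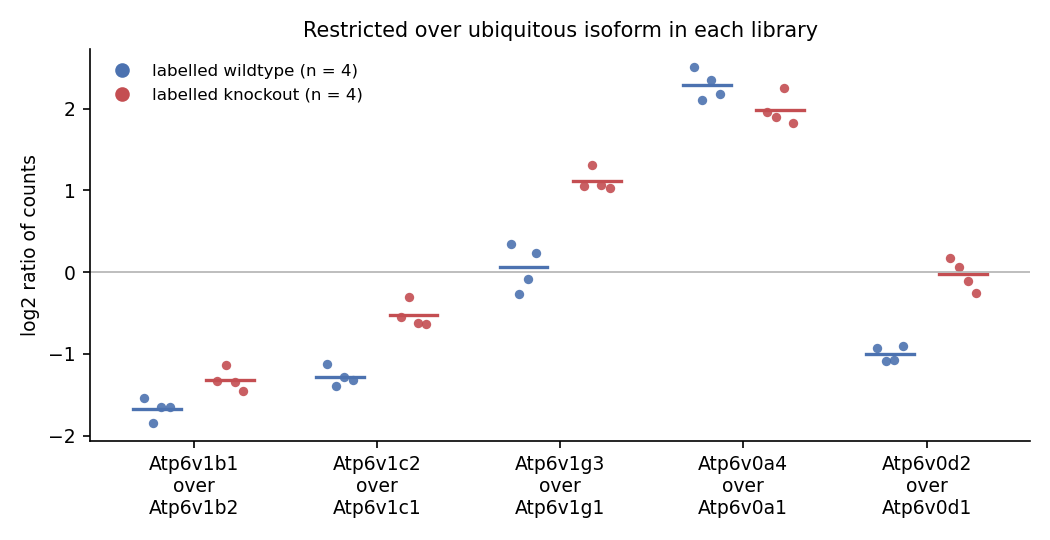
Log2 ratio of restricted over ubiquitous isoform counts in each library, points for libraries and bars for group means (n = 4 each). The groups separate for subunits B, C, G and d, with every knockout-labelled library higher, and overlap for subunit a.

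Divided by exon length, the ratios become shares of transcripts within each pair, which mix all cell types of the kidney. Atp6v1g3 made up 38.6 ± 4.63% of the sum of Atp6v1g3 and Atp6v1g1 in the wildtype-labelled libraries and 56.6 ± 2.18% in the knockout-labelled ones (SD, n = 4 each). By this share it passed from the lesser to the greater of this pair in whole kidney. That change of order rests on the exon lengths. By counts not divided by length the 2 were already about level in the wildtype-labelled libraries (log2 ratio 0.06 ± 0.28). For subunit d the share of Atp6v0d2 went from 24.8 ± 1.25% to 39.3 ± 3.13%, and for subunit C that of Atp6v1c2 from 51.5 ± 1.91% to 64.1 ± 2.40%. Atp6v1b1 went from 27.6 ± 1.72% to 32.7 ± 2.09% of the B transcripts. Atp6v0a4 held 86.5 ± 1.44% and 83.8 ± 1.69% of the sum of Atp6v0a4 and Atp6v0a1. The lengths are union exon lengths of GENCODE M21, on another genome build than the counts, so the shares depend on that annotation while their differences between groups do not change sign with it.

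Reads that align equally well to both isoforms of a pair are set apart by the counter as not unique and count for neither. Such losses could shift the ratios. The longest run of identical bases between GENCODE transcripts of a pair was 26 bases for subunit B, 18 for subunit a, 17 for subunit d, 15 for subunit C and 11 for subunit G. The run of subunit B is printed because it is the longest of the pump pairs.
Atp6v1b1 and Atp6v1b2: cagtgtgagaagcacgtgctggtgat

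In the wildtype-labelled libraries the restricted isoforms differed in level per length. Atp6v0a4 was the highest at 85.3 ± 3.94 CPM per kb (SD, n = 4), followed by Atp6v1g3 at 49.4 ± 6.75, Atp6v1b1 at 34.0 ± 2.05, Atp6v1c2 at 27.9 ± 4.04 and Atp6v0d2 at 26.3 ± 2.48 CPM per kb. The last pair lay within each other's spread. In the knockout-labelled libraries Atp6v1g3 reached 97.0 ± 11.4 CPM per kb and stood above Atp6v0a4 at 71.1 ± 8.92, while Atp6v0d2 and Atp6v1c2 stood at 48.4 ± 3.63 and 45.1 ± 5.93, above Atp6v1b1 at 35.7 ± 3.87 CPM per kb. These ranks depend on the exon lengths used. Not divided by length, Atp6v0a4 stayed above Atp6v1g3 there, at means of 354 and 183 CPM. Atp6v1b1, at 157 CPM, likewise stayed above Atp6v0d2 and Atp6v1c2, at 131 and 98.1 CPM.

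Isoforms known mainly from other tissues and the accessory proteins did not pass the test. Atp6v1g2, the neuronal form of subunit G, stood at 9.53, 9.72, 11.6 and 10.2 CPM against 8.66, 5.70, 8.91 and 8.13 CPM. Every knockout-labelled library was higher, with a log2 fold change of 0.38 ± 0.15 (SE) and an edgeR adjusted p of 0.125. Tcirg1, the osteoclast form of subunit a, had a log2 fold change of 0.16, Atp6v0e2 of -0.14, and the accessory subunits Atp6ap1 and Atp6ap2, the second of them also known as the prorenin receptor, of 0.11 and 0.10, with edgeR adjusted p-values of 0.222 to 0.415. Atp6v1e2, the testis form of subunit E, had 2 counts in all, both in wildtype library 3.

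Of the other genes of the pump's surroundings, assembly factors and regulators did not change by this test: of 11 tested, 0 passed with edgeR (1 at an unadjusted p under 0.05), with a median log2 fold change of -0.08 and a range of -0.32 to 0.15. Among 23 lysosome genes 1 rose, the protease gene Ctsd (0.29 ± 0.074, adjusted p = 0.029), 0 fell, and the median was -0.07. Of 18 acid-base partners of intercalated cells 9 rose, 0 fell and 9 did not pass the test, with a median of 0.53, where 6.23% of all genes rose. Slc26a4, which encodes pendrin, had a log2 fold change of 1.51 ± 0.097 (SE; edgeR adjusted p = 9.81e-06), Hmx2, a homeobox gene, 1.77 ± 0.14, Insrr, an alkali-sensing receptor, 1.04 ± 0.077, and Slc4a9, the basolateral transporter of type B cells, 0.86 ± 0.076. Foxi1, known to be required for Atp6v1b1 and Atp6v0a4 expression, rose by 1.03 ± 0.15 on the log2 scale (edgeR adjusted p = 0.0021), to 2.04 times its level, while these 2 genes did not pass the test. Slc4a1, the basolateral anion exchanger of type A cells, which red cell precursors also express, had a log2 fold change of -0.20 (edgeR adjusted p = 0.317). Of 6 red cell transcripts tested, Slc4a1 among them, 1 fell and 0 rose, with log2 fold changes of -8.93 to -0.20. The 1 that fell was the globin gene Hba-a2 (-8.93, edgeR adjusted p = 0.00205). It stood at 0.058, 0, 0.168 and 0 CPM in the knockout-labelled libraries against 65.5, 36.8, 15.8 and 16.1 CPM. Another globin gene, Hba-a1, did not pass the test (-0.29, edgeR adjusted p = 0.553). The summed level of the red cell transcripts was 263 to 449 CPM in the knockout-labelled libraries against 483 to 946 CPM. The part of red cells in the value of Slc4a1 was not tested.

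Carbonic anhydrases covered more than 2 orders of magnitude per length in the wildtype-labelled libraries. Car2, the main cytosolic enzyme of the kidney, was the highest at 228 ± 23.1 CPM per kb (SD, n = 4), followed by the membrane-bound Car4 at 87.4 ± 7.03. Car3 at 55.3 ± 23.6 and Car12 at 54.0 ± 7.97 CPM per kb lay within each other's spread. Car14 stood at 34.0 ± 4.78, Car8 at 2.02 ± 0.61 and Car13 at 1.10 ± 0.19 CPM per kb. Of the 7 tested, 1 rose, 1 fell and 5 did not pass, with a median log2 fold change of -0.08.

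Car14 (ENSMUSG00000038526), a transmembrane enzyme that faces the outside of the cell, is known from proximal tubule and thin limb. It stood at 43.3, 24.6, 48.2 and 52.3 CPM in the knockout-labelled libraries against 70.3, 97.6, 93.6 and 84.1 CPM. The groups did not overlap and knockout library 2 was the lowest. The level was 2.06-fold lower in the knockout-labelled group (fitted log2 difference -1.04 ± 0.22 (SE), edgeR adjusted p = 0.0183), from 86.4 ± 12.1 to 42.1 ± 12.2 CPM (SD, n = 4 each). Without wildtype library 2 the adjusted p was 0.0513 and without wildtype library 3 it was 0.0536. Once the clock score entered the fit the value was -0.77 (adjusted p = 0.302).

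Of 12 proximal tubule markers tested, 4 fell, 0 rose and 8 did not pass the test, with a median log2 fold change of -0.57, and their summed level was 8031 to 12580 CPM in the knockout-labelled libraries and 14835 to 17305 CPM in the wildtype-labelled ones. Knockout library 2 was the lowest in this sum and in Car14, whereas knockout library 4, the highest of its group in Car14, had the second lowest sum (10103 CPM). The part of the proximal tubule share in the change of Car14 was not tested. The exons of Car14 share 445 bases, 17.5% of their length, with Aph1a on the opposite strand, which had a log2 fold change of -0.16 (edgeR adjusted p = 0.418). A match to the forkhead letters lies 142 to 136 bases before the RefSeq start of Car14, at chr3:95904810-95904838 on the minus strand, and is shown in capitals as the counterpart of those in the genes that rose.
Car14: cgagcggcagtGTAAATAgcaaaggaaga

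Car13 (ENSMUSG00000027555), a cytosolic enzyme, was the lowest of the 7 per length in the wildtype-labelled libraries; in the knockout-labelled ones it stood at 2.05 ± 0.28 and Car8 at 1.63 ± 0.32 CPM per kb (SD, n = 4 each). It had 92, 87, 71 and 61 counts in the knockout-labelled libraries and 32, 27, 46 and 50 in the wildtype-labelled ones, or 5.38, 5.09, 3.97 and 4.41 CPM against 2.41, 1.97, 2.68 and 3.03 CPM. Each library labelled knockout exceeded all of the wildtype-labelled ones. The gene was 1.86-fold higher (log2 fold change 0.89 ± 0.19 (SE), edgeR adjusted p = 0.0117). Fitted beside the clock score the value was 1.13 and the adjusted p 0.0509.

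Car13 lies on chromosome 3 in a row of protein-coding genes with Car1, Car3 and Car2. With the far more abundant Car2 it shares a run of 30 identical bases, printed here because reads within it would fit both genes, and with Car3 the longest run was 12 bases.
Car13 and Car2: ggactactggacataccctggctctctgac

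Car2 (ENSMUSG00000027562), the enzyme that feeds the pump of intercalated cells and is also active in proximal tubule, stood at 559.9, 598.9, 617.1 and 608.8 CPM in the knockout-labelled libraries against 620.6, 569.1, 487.6 and 535.6 CPM. The highest value belonged to wildtype library 1, and the log2 fold change was 0.11 ± 0.087 (SE) with an edgeR adjusted p of 0.466. Car12, a transmembrane enzyme, stood at 458.4, 335.0, 416.8 and 338.1 CPM against 413.9, 478.6, 331.0 and 417.0 CPM (-0.08 ± 0.13, edgeR adjusted p = 0.729). In both genes the groups overlapped, and the range within each group exceeded the difference of the group means.

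Car4, which is anchored to the cell surface and recovers bicarbonate in the proximal tubule, stood at 142.7, 127.6, 163.6 and 127.2 CPM against 151.7, 173.9, 180.3 and 181.4 CPM. Only knockout library 3 and wildtype library 1 crossed, and the log2 fold change was -0.29 ± 0.095 (SE; edgeR adjusted p = 0.0704). It passed without either of these libraries (-0.37, adjusted p = 0.0254, and -0.35, adjusted p = 0.0491) and with DESeq2 (adjusted p = 0.0376). Car8, a related protein without enzyme activity, stood at 7.31, 6.91, 4.53 and 6.35 CPM against 9.42, 5.55, 5.94 and 10.2 CPM (-0.31 ± 0.23, edgeR adjusted p = 0.417), with overlapping groups.

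**Figure D4:**
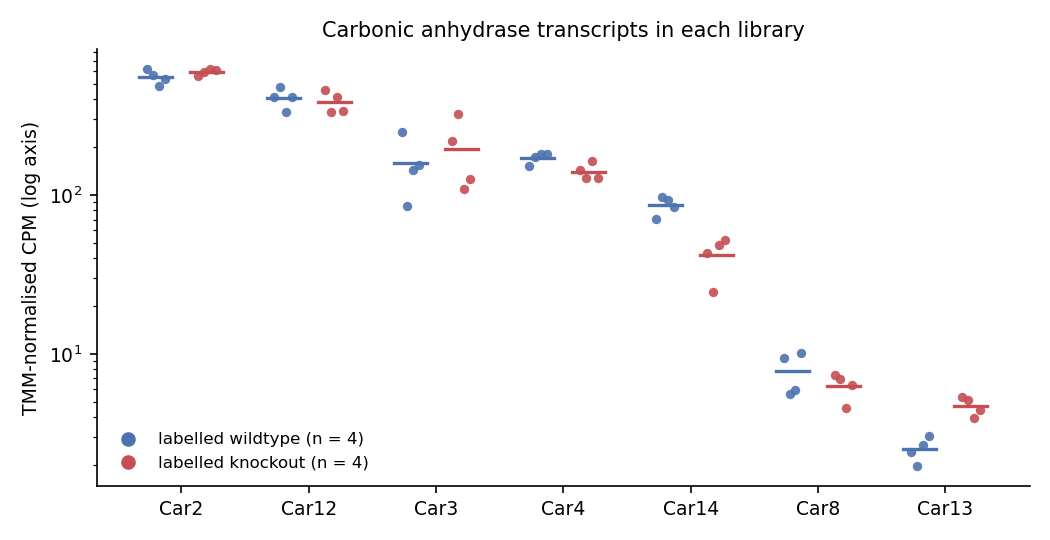
TMM-normalised CPM of the 7 carbonic anhydrases tested, on a log axis, points for libraries and bars for group means (n = 4 each); levels are not divided by gene length. Car14 lies lower and Car13 higher in every knockout-labelled library, and Car3 spreads over more than 2-fold within each group.

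Car15, an enzyme anchored to the cell surface, was not tested: it had 3, 13, 13 and 5 counts in the knockout-labelled libraries and 5, 6, 7 and 9 in the wildtype-labelled ones, and 65.7% of its exon bases are shared with Gm20518 on the same strand, so that its level is uncertain. Of 5 carbonic anhydrase genes outside the members that were tested, namely Car5a, Car5b, Car7, Car9 and Car11, 0 passed with edgeR (1 at an unadjusted p under 0.05), with a median log2 fold change of -0.29. Car1, Car6 and Car10 were too low to test, with 9, 7 and 0 counts over all libraries.

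Car3 (ENSMUSG00000027559), an enzyme of low activity that is abundant in fat and muscle, stood at 218.3, 323.5, 108.4 and 126.8 CPM in the knockout-labelled libraries and at 249.3, 85.8 (wildtype library 2), 143.5 and 154.9 CPM in the wildtype-labelled ones. Its log2 fold change was 0.30 ± 0.45 (SE; edgeR adjusted p = 0.724) and -0.07 without knockout library 2. The range within each group was larger than the difference of the means, 194 and 158 CPM. Adipoq, the adipocyte hormone adiponectin, stood at 32.8, 59.2, 14.2 and 30.4 CPM against 50.02, 12.1, 21.7 and 26.4 CPM, with the same highest and second highest library as Car3. Over the 8 libraries, on the log2 scale, Pearson's r of Car3 with Adipoq was 0.94 (exact permutation p = 0.000744, Benjamini-Hochberg adjusted over 8 adipocyte genes 0.00463) and Spearman's rho was 0.93 (exact permutation p = 0.00223, adjusted 0.0179). Without the 2 libraries farthest from the Adipoq median, knockout 2 and wildtype 2, r was 0.86.

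The other 7 adipocyte genes had r of 0.35 (Lep) to 0.92 (Plin4) with Car3. Without the 2 libraries farthest from each gene's median, r was 0.87 for Plin1, 0.78 for Plin4, 0.74 for Cfd, 0.71 for Cidec, 0.60 for Retn, 0.29 for Fabp4 and -0.41 for Lep, so that for Fabp4 the relation rested on those libraries. Of these 8 adipocyte markers 0 rose or fell with edgeR (0 at an unadjusted p under 0.05), their median log2 fold change was 0.31, and their summed level was 313 to 1221 CPM in the knockout-labelled libraries and 213 to 928 CPM in the wildtype-labelled ones. Of 8 skeletal muscle markers 4 were tested and 1 fell, Pvalb, which the distal convoluted tubule also expresses. Their summed level, Pvalb included, was 9.12 to 15.6 CPM in the knockout-labelled libraries and 57.2 to 197 CPM in the wildtype-labelled ones. Pvalb made up most of that difference, at 1.16 to 4.31 CPM against 49.1 to 188 CPM. The other tested muscle markers, Myh1, Mylpf and Atp2a1, had log2 fold changes of 0.34, 0.14 and 0.50 and did not pass the test. The part of fat or muscle tissue in the level of Car3 was not tested.

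**Figure D5:**
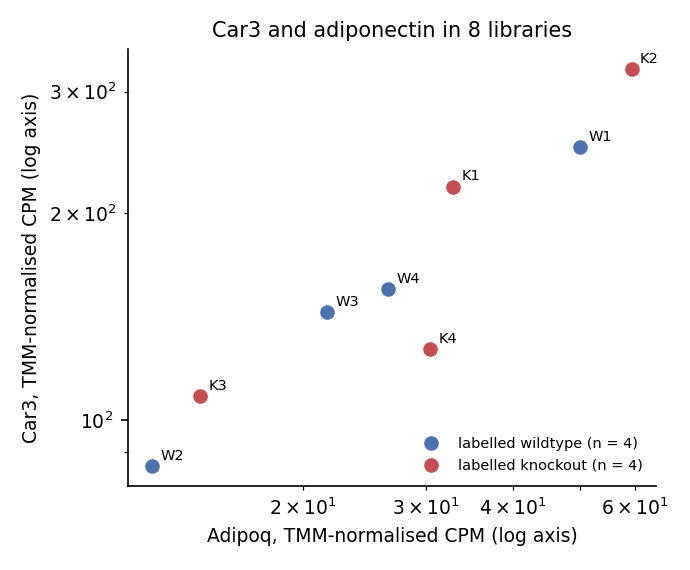
Car3 against Adipoq in the 8 libraries, TMM-normalised CPM on log axes, each point a library named by group and replicate (K for labelled knockout, W for labelled wildtype). In both groups libraries with more Adipoq mostly had more Car3, with knockout 2 and wildtype 1 highest and wildtype 2 lowest in both genes.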

How the data were processed

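Counts of reads per gene were deposited by the authors, 1 table per library and with no normalization; STAR, HTSeq, edgeR and the build mm9 are named, per the submitters' processing notes, with no versions or annotation in the sources used here. Per the labels' protocols 200 ng of total RNA entered a strand-marking kit with 15 PCR cycles, but the names of the count tables say they were not stranded, so reads of overlapping opposite-strand genes cannot be told apart. Records assigned to genes made up 63.8% to 69.1%; the counter's summary rows stayed out. Symbols matched 32860 of 37583 identifiers.

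Genes were kept by filterByExpr, scaled by TMM and compared with edgeR 4.0.16 (R 4.3.3) by a two-sided robust quasi-likelihood test without covariates, with Benjamini-Hochberg adjustment over 15228 genes. DESeq2 1.42.0 and limma 3.58.1 (voom) were alternatives. The members and lists were chosen with earlier results of these data known. Values are given for called members, isoform pairs and tested carbonic anhydrases. They are also given for at most 4 genes of most other lists, by smallest adjusted p, besides Foxi1 and Tfap2b. The adipocyte genes do not follow this rule: all 8 are named, and Adipoq, shown in full, had the highest r with Car3. Slc4a1, Hba-a1, Csf1r, Lyz2, Tmem213, Aph1a, Aqp4, Myh1, Mylpf, Atp2a1 and the low-count genes were named after their values were seen. Promoter windows are RefSeq's (GRCm38.p6) and were present for 23 of 33 members; exon lengths, overlaps and transcripts are GENCODE M21 (GRCm38), and none was converted to mm9. Simulated data were drawn for 15228 genes, with 50 picked at random for each fold and the rest unchanged. There edgeR recovered 50% of the genes changed 1.5-fold, 66% changed 2-fold, 90% changed 4-fold and 98% changed 8-fold, with 10 false calls, 6.17% of calls. The changed genes were a smaller share than the 11.9% called here, so these rates need not hold for the members. Same-group libraries were distinct (chi-square per degree of freedom 9.04 to 22.9).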

Additional observations from a re-analysis of the deposited data

Results flagged for a closer look

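In 5 of the 72 groups of 4 values examined, a library stood apart from the other 3 of its group, with a gap to its nearest neighbour larger, as a share of the group's range, than Dixon's 95% critical value; chance gives about 1 in 20. Atp6v1b1 was highest in wildtype library 1, at 162.5 CPM against 143.4 to 146.6 (gap 0.832 of the range). Atp6v0d2 was lowest in knockout library 4, at 116.6 CPM against 135.2 to 137.6 (0.8824 of the range). Atp6v1h was lowest in knockout library 1, at 216.0 CPM against 231.1 to 234.1 (0.832 of the range). Atp6v0c, the ring subunit, was highest in knockout library 1, at 64.5 CPM against 41.2 to 42.0 (0.965 of the range). The log2 ratio of Atp6v1g3 over Atp6v1g1 was highest in knockout library 2, at 1.31 against 1.04 to 1.07 (0.8762 of the range).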

How the results depend on the processing

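Each member had 18 other fits. Atp6v0d2 (0.82 to 0.98) and Atp6v1g3 (0.71 to 1.08) passed in 18 of 18, Atp6v1c2 in 17, Car13 in 15, Car14 in 13 and Atp6v1b2 in 6. The cause of each lost call was not tested. The number of members that rose, 4 in the report, was 2 with a clock score term, 3 with the replicate block, without knockout libraries 1 and 4 or at a threshold of 0.01, and 6 with library totals only, where Atp6v0b and Atp6v1g2 passed as well. The number that fell, 2 in the report, was 1 with library totals only, upper quartile factors, no filter on low counts or the replicate block, 0 with a clock score term, without knockout libraries 1 and 4 (fewer samples) or at a threshold of 0.01, and 4 with DESeq2 or at a threshold of 0.10. Leaving out each library in turn gave 4 that rose and 0 to 3 that fell.

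Over all genes, 949 rose and 868 fell. Library totals only gave 1658 and 508, a clock score term 476 and 221, the fit without knockout libraries 1 and 4 gave 502 and 410, a threshold of 0.01 gave 380 and 326, and one of 0.10 gave 1440 and 1410; leaving out each library in turn gave 588 to 977 and 488 to 963.

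Same-numbered libraries did not deviate together (correlations -0.24, -0.11, 0.0093 and 0.0066, and no library correlated best with its own number), so the numbers pair nothing. With a replicate block 577 genes rose and 517 fell, 1 member fell, Car13 had an adjusted p of 0.0509 and Atp6v1b2 one of 0.112. The isoform ratios kept their direction in the alternatives tried, with differences of 0.29 to 0.40 (B), 0.68 to 0.80 (C), 0.95 to 1.15 (G), -0.39 to -0.23 (a) and 0.90 to 1.05 (d) without each library in turn; paired sign flips gave 0.125, the smallest possible p for 4 pairs.

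Signs changed for members that did not pass the test. With library totals only the log2 fold change was 0.016 for Atp6v1a, 0.048 for Atp6v1c1, 0.081 for Atp6v1d, 0.023 for Atp6v1g1, 0.014 for Atp6v0d1 and 0.021 for Car12, and with upper quartile factors 0.0036 for Atp6v1d. With a clock score term it was -0.069 for Atp6v1f, -0.069 for Atp6v1h, 0.084 for Atp6v0c, -0.114 for Atp6v0e, -0.030 for Atp6ap2 and -0.098 for Car2. Leaving out each library in turn gave -0.020 (without wildtype library 1) to 0.066 for Atp6v0a1 and -0.067 (without knockout library 2) to 0.60 for Car3. At 27 to 92 counts per library Car13 is limited by depth more than the pump genes that rose.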
